A study of Mus musculus with 14 samples.

Results

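Smad4 KO colon epithelium was compared with WT colon epithelium of mice that drank plain water, in 4 and 4 bulk RNA-seq libraries out of the 14 of the series. The 8 libraries were chosen by their labels alone, which give the genotype, the absence of treatment and a replicate number. The WT mice and the mice labelled as Smad4 knockouts (Smad4 IEC-KO in the study) were adult, matched for age and gender, and on a background enriched for C57/BL6. The knockouts carried Smad4 f/f alleles and Villin-Cre ERT2, a Cre recombinase that the villin promoter drives in intestinal epithelium and that works after tamoxifen. The study's drawn regimens give tamoxifen to the knockout mice, show none for WT mice with DSS and do not cover WT mice on water, so in these 8 libraries tamoxifen and loss of Smad4 cannot be told apart. Epithelium was shaken off the colon in EDTA, crypt epithelium was isolated from it with a filter, and polyadenylated RNA was sequenced. Every value is therefore a sum over the epithelial cells so collected and over any other cells that came with them. In such bulk RNA, fewer cells of a type and less RNA per cell cannot be told apart. The other 6 libraries, 3 WT and 3 Smad4 KO after 3 days of 2.5% DSS (dextran sulphate sodium, which injures the colon lining), entered the model for its estimate of the spread and are given below only beside the water values.

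SMAD4 is the shared partner through which receptor-activated SMAD proteins act on genes: SMAD1 and SMAD5 after a bone morphogenetic protein (BMP) signal, SMAD2 and SMAD3 after a TGF-β or activin signal. In the colon, BMP signalling is strongest toward the surface, where cells mature, and is held low at the crypt base, where stem cells divide. The Id genes, which encode inhibitors of differentiation factors, and the inhibitory Smads Smad6 and Smad7 are among the best known direct BMP targets.

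Libraries held 12882827 to 26087231 gene-level counts. Levels below are normalized counts, which are counts scaled by TMM (an edgeR factor that levels the libraries on their shared genes) to the mean effective library size, with replicates 1 to 4 in order. Smad4 itself stood at 2434, 3188, 2694 and 2372 in WT. In the libraries labelled Smad4 KO it stood at 3164, 741, 936 and 702. KO replicate 1 therefore lay at the WT level and the other 3 well below every WT library. With that library, the log2 fold change (KO over WT, ± SE) was -0.95 ± 0.36 and did not pass the test (edgeR quasi-likelihood test, adjusted p = 0.0954, Benjamini-Hochberg over all genes). Without it, the log2 fold change was -1.75 ± 0.15, which is no test of Smad4, since that library was set aside for its Smad4 level. The study's legends count fewer Smad4 KO replicates on water than the labels do, and do not say which library was not counted. Values with and without KO replicate 1 are given from here on for the main results. For some genes the estimate of only 1 of these fits is given. KO replicate 1 is called the library labelled KO replicate 1.

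Mitochondrially encoded genes took 8.23, 6.42, 30.6 and 32.8% of the counts in WT replicates 1 to 4 and 5.02, 8.10, 4.83 and 21.4% in the libraries labelled KO replicates 1 to 4. WT replicates 3 and 4 and KO replicate 4 thus held several times the share of the other 5. The group means were 9.84% ± 7.85 (SD, n = 4) in KO and 19.5% ± 14.1 (SD, n = 4) in WT (2-sided exact permutation test, p = 0.2, and p = 0.343 without the library labelled KO replicate 1). The library names begin with letters whose meaning is not given in the sources used here: D, D, Z and MP in WT, and Z, Z, MS and MP in KO. Any batch behind these letters is therefore only partly shared by the groups.

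**Figure D1:**
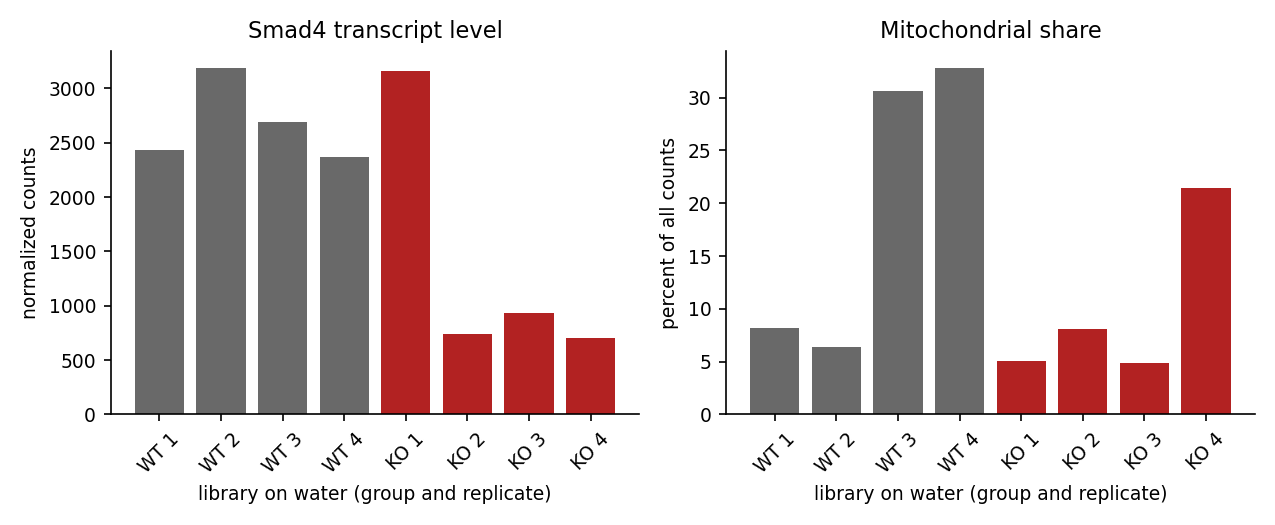
Smad4 normalized counts (left) and the percent of counts on mitochondrially encoded genes (right) in each of the 8 water libraries, WT in gray and those labelled Smad4 KO in red, 1 bar a library. Smad4 is at 3164 in the library labelled KO replicate 1 and between 702 and 936 in KO replicates 2 to 4, and the mitochondrial share is above 20% in WT 3, WT 4 and KO 4 only.

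Of 15127 genes tested, 731 were called higher (4.83%) and 545 lower (3.6%) in KO at an adjusted p below 0.05, 8.44% in either direction (edgeR, 1 model of all 14 libraries). Without the library labelled KO replicate 1, 612 of 15074 were called higher (4.06%) and 542 lower (3.6%), 7.66% in either direction, of which 517 and 365 were also called with it. These counts hang on single libraries. Leaving out WT replicate 4 left 4 calls, leaving out KO replicate 2 left 16, and leaving out KO replicate 3 left 5, while leaving out KO replicate 4 gave 4104. With the mitochondrial share as a covariate 8 genes were called (597 without the library labelled KO replicate 1), and a fit of the 8 water libraries alone called 1 (13 without that library, 796 by DESeq2). Rpl34 was the only gene called in all 25 alternatives. A single gene's call below is therefore a statement about the 14-library model. For many genes, though not for all, the value in each library is given so that it can be read without that model. As a background for groups that do not overlap, all 4 KO libraries lay above all 4 WT libraries for 5.18% of the tested genes and below them for 5.2%, and KO replicates 2 to 4 did so for 7.26% and 7.66%.

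Genes called without the library labelled KO replicate 1 show where that library lies. Among the 1094 such genes with a mean of at least 50 normalized counts, it was nearer to the WT mean than to the mean of the other KO libraries for 423 (38.7%). The share was 152 of 581 (26.2%) for genes called higher and 271 of 513 (52.8%) for genes called lower. For genes called lower it thus lay on the WT side about as often as on the KO side. The other KO libraries were placed in the same way among genes called with both that library and the library labelled KO replicate 1 left out. KO replicate 2 was nearer to the WT mean for 22 of 128 such genes (17.2%) and KO replicate 3 for 18 of 135 (13.3%), while KO replicate 4 was nearer to it for 3310 of 4155 (79.7%).

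The BMP target genes were the list with the largest share of members called lower. Of 16 listed, 10 were tested, and 3 of the 10 were called lower with all libraries (Id1, Smad6 and Atoh8) and 6 of 9 without the library labelled KO replicate 1 (also Id2, Id3 and Smad7), beside the 3.6% of all genes. None was called higher in either fit. The list's median log2 fold change was -0.68, and -1.23 without that library, beside -0.01 for all genes in both. These targets are a list chosen with earlier results of these data known.

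The 250 bases before the start sites of Id3 and Id2 are shown because Id3 fell furthest of the BMP targets and because each holds a different letter run known as a SMAD element. Both come from RefSeq on build GRCm38.p6, which is not the build of the counts (mm9), and capitals mark the run on either strand. The Id3 stretch (chr4:136143572-136143821, plus strand) holds CAGAC, once as written and once as its reverse complement, and the Id2 stretch (chr12:25096093-25096342, minus strand) holds GGCGCC, which is its own reverse complement.
Id3: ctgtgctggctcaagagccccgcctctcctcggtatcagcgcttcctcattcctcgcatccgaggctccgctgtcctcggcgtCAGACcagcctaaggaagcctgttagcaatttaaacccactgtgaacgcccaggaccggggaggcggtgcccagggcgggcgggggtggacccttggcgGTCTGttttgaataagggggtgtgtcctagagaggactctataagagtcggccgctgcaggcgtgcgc
Id2: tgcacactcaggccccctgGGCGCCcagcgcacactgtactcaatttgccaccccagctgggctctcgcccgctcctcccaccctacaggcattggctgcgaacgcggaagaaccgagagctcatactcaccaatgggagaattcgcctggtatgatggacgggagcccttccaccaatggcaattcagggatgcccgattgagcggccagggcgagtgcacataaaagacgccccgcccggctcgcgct
CAGAC occurred 2 times in the Id3 stretch and GGCGCC 1 time in that of Id2, and neither run was in the stretches of Smad6 or Atoh8. The table of promoters has no entry matched to Id1. Such matches are common: CAGAC was in 40.8% and GGCGCC in 16.0% of the 9855 tested genes that could be matched to a promoter. For the genes called lower without the library labelled KO replicate 1 the shares were 42.7% and 16.3%, and for those called higher they were 37.6% and 20.6%. Genes called lower thus held both runs about as often as all tested genes did.

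Id3 (chr4:135699412-135701670 in mm9) stood at 2276, 2401, 1566 and 1447 in WT and at 1237, 4.77, 39.5 and 82.4 in the libraries labelled KO. The library labelled KO replicate 1 was just below the lowest WT value, and the other 3 KO libraries were near the bottom of the count range. The log2 fold change was -2.49 ± 0.92 (edgeR adjusted p = 0.0878) with all libraries and -5.49 ± 0.60 (edgeR adjusted p = 0.000487) without that library. Id1 (chr2:152561987-152563146) was at 7082, 9101, 6634 and 5538 in WT and 6058, 958, 1456 and 1827 in KO. Here the library labelled KO replicate 1 sat among the WT values and the other 3 lay far below all of them. Its log2 fold change was -1.46 ± 0.40 (edgeR adjusted p = 0.0411), or -2.33 ± 0.22 without the library labelled KO replicate 1 (edgeR adjusted p = 0.00012). Id2 was at 382, 351, 258 and 209.8 in WT and 378, 157, 77.4 and 153 in KO, and passed only without that library (-1.23 ± 0.28, edgeR adjusted p = 0.0255). Id4, the remaining Id gene, was at 68.9, 74.6, 65.2 and 53.5 in WT and 128, 137, 65.1 and 125 in KO, higher in 3 of the 4 KO libraries, and was not called (edgeR adjusted p = 0.091, and 0.155 without that library).

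For both inhibitory Smads the library labelled KO replicate 1 was again the highest of the KO values. Smad6, which blocks BMP receptors, was at 564, 557, 409 and 529 in WT and 433, 183, 135 and 178 in KO (log2 fold change -1.15 ± 0.32, edgeR adjusted p = 0.0411, and -1.64 ± 0.26 with adjusted p = 0.00708 without the library labelled KO replicate 1). Smad7, which blocks both arms of the pathway, was at 973, 1288, 818 and 610.1 in WT and 898, 490.4, 595 and 576 in KO and passed only without that library (-0.74 ± 0.21, edgeR adjusted p = 0.0472). Atoh8, a basic helix-loop-helix factor induced by BMP, was at 138, 136, 178 and 212 in WT and 106, 27.4, 24.7 and 49.2 in KO, with no overlap between the groups even when all 4 KO libraries are counted. Its log2 fold change was -1.66 ± 0.45 (edgeR adjusted p = 0.0377) and -2.29 ± 0.42 without that library (edgeR adjusted p = 0.0119). Without that library, all 6 genes also passed with the mitochondrial share as a covariate (edgeR adjusted p from 0.000152 for Id1 to 0.0234 for Id2), while with it none did (adjusted p from 0.0754 for Id1 to 0.184 for Id2). With the name letters as a block and without that library, Id2 and Smad7 did not pass (edgeR adjusted p = 0.126 and 0.184). Bambi, a decoy receptor, overlapped between the groups and was not called (0.07 ± 0.25, edgeR adjusted p = 0.876).

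**Figure D2:**
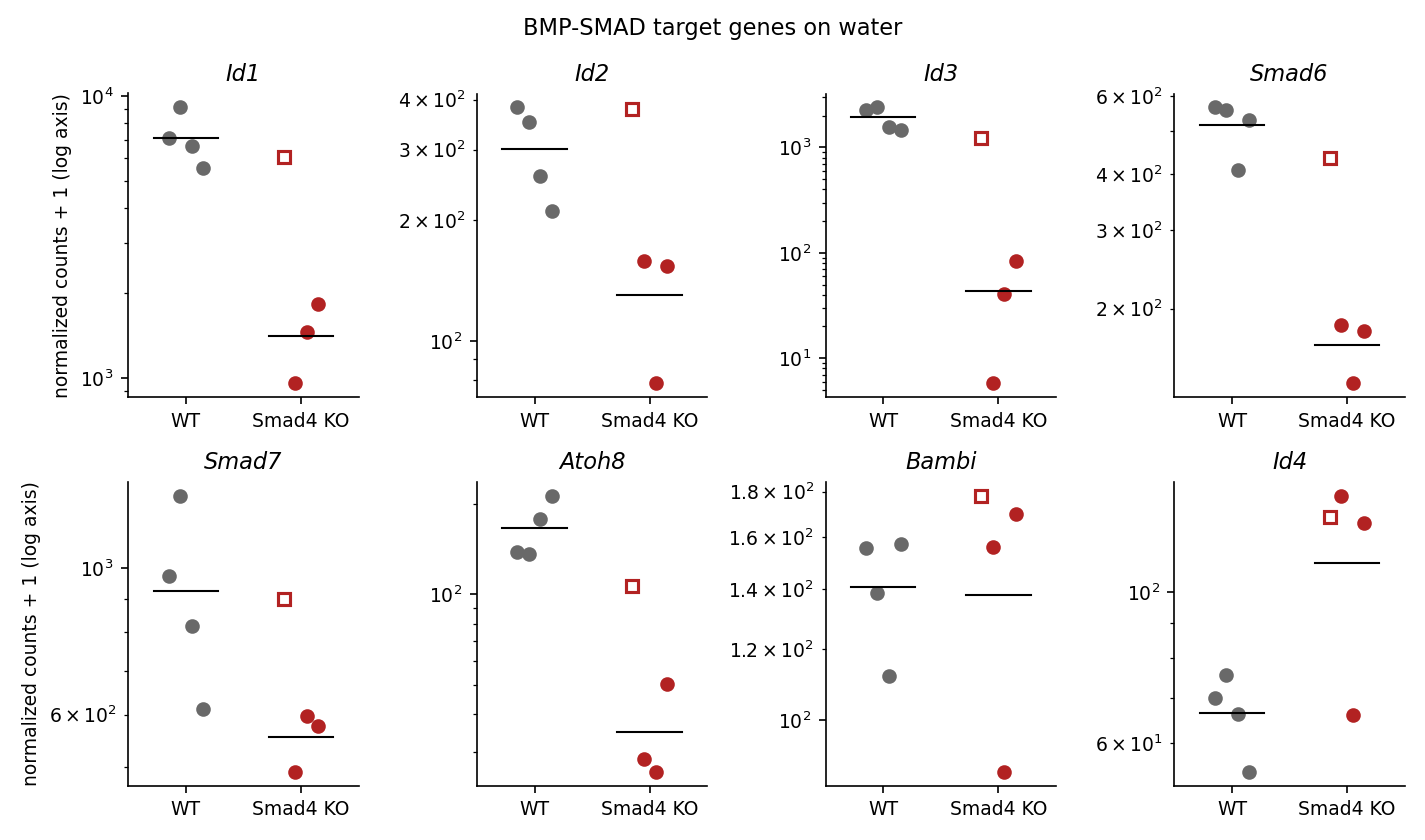
Normalized counts plus 1, on log axes that differ between panels, of 8 BMP-SMAD target genes in the 4 WT (gray) and 4 Smad4 KO (red) libraries on water; the open square is the library labelled KO replicate 1, and black lines are the means of the 4 WT libraries and of KO replicates 2 to 4. For Id1, Id2, Id3, Smad6, Smad7 and Atoh8 the 3 filled KO points lie below every WT point and the open square lies above the other KO points.

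The remaining Smads did not differ in this way. Smad1, Smad2, Smad3 and Smad5, which receptors activate, had log2 fold changes of 0.06, 0.28, 0.06 and 0.47, and none was called with or without the library labelled KO replicate 1. Smad5 came nearest, with 967, 977, 921 and 758 in WT and 1354, 1360.2, 1422 and 891 in KO (edgeR adjusted p = 0.0528). Smad9, another receptor-activated member, was at 7.41, 10.7, 0 and 4.28 in WT and 12.3, 0, 1.65 and 0 in KO, too few counts to be tested without that library, and was not called with it (-0.70 ± 1.03, edgeR adjusted p = 0.688).

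Among ligands and their secreted antagonists, 2 of 17 tested were called, both higher and both with and without the library labelled KO replicate 1, beside 4.83% and 4.06% of all genes called higher. Bmp3, a ligand that opposes the other BMPs, was at 282, 228, 122 and 329.7 in WT and 226, 879, 863 and 512 in KO. Its 3 highest values were KO replicates 2 to 4, and the library labelled KO replicate 1 lay inside the WT range. The log2 fold change was 1.37 ± 0.35 (edgeR adjusted p = 0.0345), and 1.64 ± 0.27 without that library (edgeR adjusted p = 0.00921). Smoc2 (chr17:14416513-14541797), a secreted matricellular protein found in crypt base cells, was at 779, 904, 1263 and 901 in WT and 1444, 1917, 1997 and 1760.4 in KO, a rise in all 4 KO libraries (0.89 ± 0.17, edgeR adjusted p = 0.0214, and 0.98 ± 0.18 with adjusted p = 0.0121 without that library). Bmp2 was at 690.4, 957, 960.1 and 443 and 859, 733, 1382 and 890.4, overlapped between groups and was not called.

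Of 13 receptors and co-receptors tested, 1 was called in both fits, beside 8.44% and 7.66% of all genes in either direction. This was Tgfbr1, the type I TGF-β receptor. It was at 459, 475, 479 and 469 in WT and 572, 746, 758 and 559 in KO, a small difference with tight WT values (0.48 ± 0.14, edgeR adjusted p = 0.0455, and 0.55 ± 0.15 with adjusted p = 0.0421 without the library labelled KO replicate 1). Bmpr1a, a type I BMP receptor, had a log2 fold change of 0.60 ± 0.19 and missed the threshold (edgeR adjusted p = 0.0542). Among 18 tested TGF-β target genes, 1 was called with all libraries, beside 8.44% of all genes in either direction. Skil, a repressor that binds SMADs, was at 980.1, 913, 828 and 492 in WT and 1442, 1711, 2017 and 1356 in KO, with no overlap (1.02 ± 0.18, edgeR adjusted p = 0.0214, and 1.07 ± 0.20 with adjusted p = 0.0119 without that library). Cdkn1a, the cell cycle inhibitor p21, was called lower only without that library: it was at 3151, 4267, 3196 and 2672 in WT and 2826, 1033, 1413 and 2359 in KO (-1.05 ± 0.23, edgeR adjusted p = 0.0225). The median log2 fold change of the TGF-β targets was 0.13, against -0.68 for the BMP targets.

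A KO and a WT library share the letter Z in their names, another pair shares MP, and the main differences were seen inside both pairs. Between KO replicate 2 and WT replicate 3 (Z) and between KO replicate 4 and WT replicate 4 (MP), the log2 difference was -1.86 and -1.75 for Smad4, -2.79 and -1.60 for Id1, and -8.08 and -4.12 for Id3. It was -3.12 and -3.81 for Mal and 0.60 and 0.97 for Smoc2. The library labelled KO replicate 1, also a Z library, differed from WT replicate 3 by 0.23 for Smad4 and -0.34 for Id3. Of the 701 genes called higher with at least 50 normalized counts on average, 689 were higher in both pairs, and of the 518 called lower 513 were lower in both. These pairs are part of the libraries that made the calls, and among all 11652 genes with that mean 3977 were higher in both.

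Of the 12 largest falls called both with and without the library labelled KO replicate 1, Rpl34, Gm10154 and mt-Atp8 may share reads with other genes and are taken up below. Mal (chr2:127458962-127482431), a membrane protein of apical sorting in mature colonocytes, was at 999, 349, 517 and 612 in WT and 149, 58.5, 104 and 42.8 in KO. All 4 KO libraries lay below all WT libraries, the library labelled KO replicate 1 being the highest of the KO values (-2.80 ± 0.39, edgeR adjusted p = 0.00882, and -3.17 ± 0.41 with adjusted p = 0.00225 without it). Mal was 1 of the 8 genes called with the mitochondrial share as a covariate. Sult1a1 (chr7:133816379-133819946), a sulfotransferase of phenols, was at 6514, 4948, 8117 and 10126 in WT and 3857, 1490.2, 1288 and 1295 in KO. Again no KO value reached WT, and the library labelled KO replicate 1 stood between the groups (-1.90 ± 0.32, edgeR adjusted p = 0.0191, and -2.45 ± 0.22 with adjusted p = 8.14e-05 without it). Cyp4b1, a cytochrome P450, was at 135, 118, 34.2 and 96.3 in WT and 24.7, 8.35, 12.4 and 5.35 in KO (-2.89 ± 0.61, edgeR adjusted p = 0.0236). Sct, the hormone secretin of enteroendocrine cells, was at 392, 195, 218 and 368 in WT and 139, 70.4, 28.8 and 71.7 in KO (-1.92 ± 0.42, edgeR adjusted p = 0.0243). Ccdc109b (also Mcub), a subunit of the mitochondrial calcium uniporter, and Insrr, a receptor related to the insulin receptor, had log2 fold changes of -1.87 and -1.72. Kazald1, AI838599 and Acaa1b (a peroxisomal thiolase) completed the falls, at -2.44, -2.64 and -1.70, and at least 1 of their KO libraries overlapped WT.

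The 12 largest rises were less even among the KO libraries. Dcn, the matrix proteoglycan decorin made by fibroblasts, was at 8.89, 9.77, 13 and 10.7 in WT and 85.4, 21.5, 73.3 and 231 in KO (3.29 ± 0.84, edgeR adjusted p = 0.0343). Cxcl5, a chemokine that draws neutrophils, was at 56.3, 26.6, 45.6 and 21.4 in WT and 88.1, 68, 357 and 168 in KO (2.15 ± 0.46, edgeR adjusted p = 0.0236). AL646020.1 was the third of the 12 with no overlap of the groups, at 31.1, 31.1, 16.3 and 30.0 in WT and 132, 146, 125 and 65.3 in KO (2.09 ± 0.32, edgeR adjusted p = 0.0146). It is annotated as a miRNA with 53 bases of exon, while polyadenylated RNA was sequenced. Which transcript its reads came from was not tested, so its level is uncertain. The other genes of the 12 overlapped, and in most of them KO replicate 4 lay near WT. Lrrc8b, a volume-regulated anion channel subunit, was at 45.2, 51.5, 75 and 17.1 in WT and 250.1, 282, 342 and 27.8 in KO. Itga2, the integrin that binds collagen, was at 122, 95.9, 86.4 and 38.5 in WT and 250.1, 439, 569 and 117 in KO. Alg10b, a glucosyltransferase of N-glycan assembly, and Lcor, a nuclear receptor corepressor, followed the same order, with KO replicate 4 at 165 and 71.7 and the other KO libraries at 688, 854 and 868 and 219, 289 and 320.3. Chml, Pgap1, Ces2f, Zfp871 and B3galt2 completed the 12, with log2 fold changes from 2.13 to 2.55. Zfp871 was lower in KO replicate 4 than in WT replicate 4 (-0.30), against the direction of its call.

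**Figure D3:**
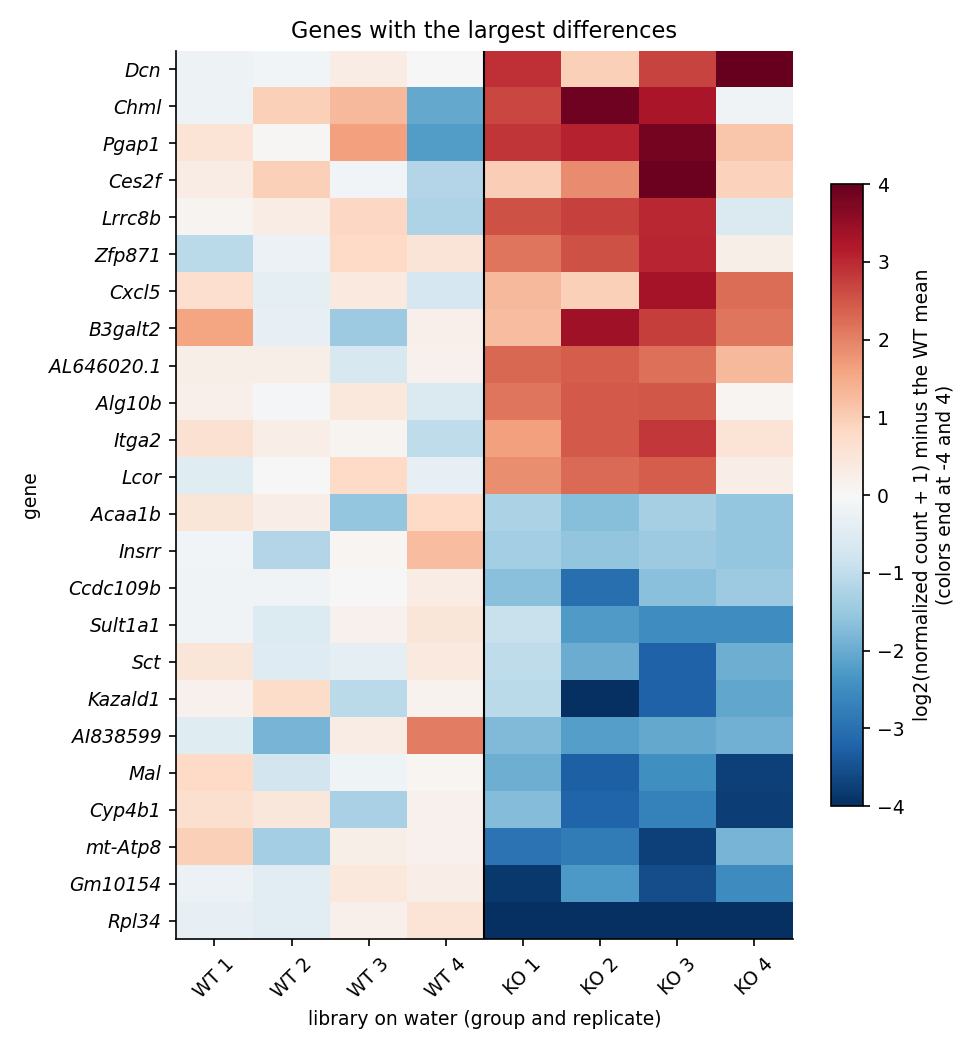
The 12 genes with the largest rise and the 12 with the largest fall called with and without the library labelled KO replicate 1 (rows), in the 8 water libraries (columns, WT left of the line, libraries labelled KO right of it); color is log2 (normalized count + 1) minus the mean of the 4 WT libraries, and colors end at -4 and 4. The falls are blue in all 4 KO columns, while KO 4 is pale for several of the rises, such as Lrrc8b at 27.8 and Zfp871 at 67.4.

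Genes called lower only without the library labelled KO replicate 1 were led by Id3. 1190002H23Rik (also Rgcc, a cell cycle regulator) was at 306, 382, 584 and 276 in WT and 374, 104, 70.0 and 89.9 in KO (-2.14 ± 0.30, edgeR adjusted p = 0.00311 without that library). Ascl2, a transcription factor of crypt base stem cells, was at 414, 338, 319 and 285 in WT and 293, 94.3, 44.5 and 113 in KO (-2.02 ± 0.31, edgeR adjusted p = 0.00598 without it). In both, the library labelled KO replicate 1 lay within the WT range and the other 3 KO libraries lay below it. The rises called only without that library were led by Hoxd8, Gbp4, Pdgfa, Podxl and Rnf150. Pdgfa (chr5:139451968-139473324), a growth factor that acts on neighbouring fibroblasts, was at 916, 976, 1579 and 1066 in WT and 906, 2609, 1782 and 4210.0 in KO (1.34 ± 0.26, edgeR adjusted p = 0.0143 without that library, and 1.07 ± 0.33 with adjusted p = 0.054 with it).

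The crypt base list moved in both directions. Of 24 tested members, 4 were called higher and none lower with all libraries, beside 4.83% of all genes called higher. Without the library labelled KO replicate 1, 5 were called higher and 3 lower, beside 4.06% and 3.6% of all genes. Lgr5, the receptor that marks these stem cells, was at 195, 154, 269 and 225 in WT and 324, 416, 443 and 403 in KO, so every KO library lay above every WT library (0.92 ± 0.24, edgeR adjusted p = 0.0358, and 1.01 ± 0.26 with adjusted p = 0.035 without that library). Slc12a2, the sodium-potassium-chloride cotransporter of crypt cells, was at 8210.2, 6709, 9465 and 6923 in WT and 12979, 21366, 18148 and 12620.5 in KO (1.06 ± 0.19, edgeR adjusted p = 0.0214). Bmi1, a Polycomb protein, rose by 0.76 on the log2 scale and Smoc2 by 0.89, also without overlap. Prom1, which encodes CD133, was called higher only without that library, at 4734, 3152, 3667 and 4994 in WT and 2618, 7755, 7413 and 6098 in KO (0.78 ± 0.19, edgeR adjusted p = 0.0299).

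Ascl2, Axin2 and Ephb3, 3 genes of the same list, went the other way and were called lower only without the library labelled KO replicate 1. Axin2, a negative feedback gene of Wnt signalling, was at 1012, 961, 1029 and 625 in WT and 1125, 657, 464 and 485 in KO and was called lower without the library labelled KO replicate 1 (-0.76 ± 0.22, edgeR adjusted p = 0.0498), just inside the threshold. Ephb3, a receptor that positions crypt cells, was at 1409.7, 1315, 1902 and 1357 in WT and 1408, 1013, 771 and 945 in KO (-0.72 ± 0.17, edgeR adjusted p = 0.0297 without that library). Sox9 and Lrig1 had log2 fold changes of 0.29 and 0.51 and were not called. Of 22 tested genes of Wnt feedback and reception, the receptors Fzd5 (0.61 ± 0.17, edgeR adjusted p = 0.0394) and Lrp6 (0.58 ± 0.16, edgeR adjusted p = 0.0421) were called higher with all libraries, and Fzd5 alone without that library (for Lrp6, edgeR adjusted p = 0.0579). Of all genes, 4.83% were called higher with that library and 4.06% without it. The list's median was 0.06, near that of all genes.

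**Figure D4:**
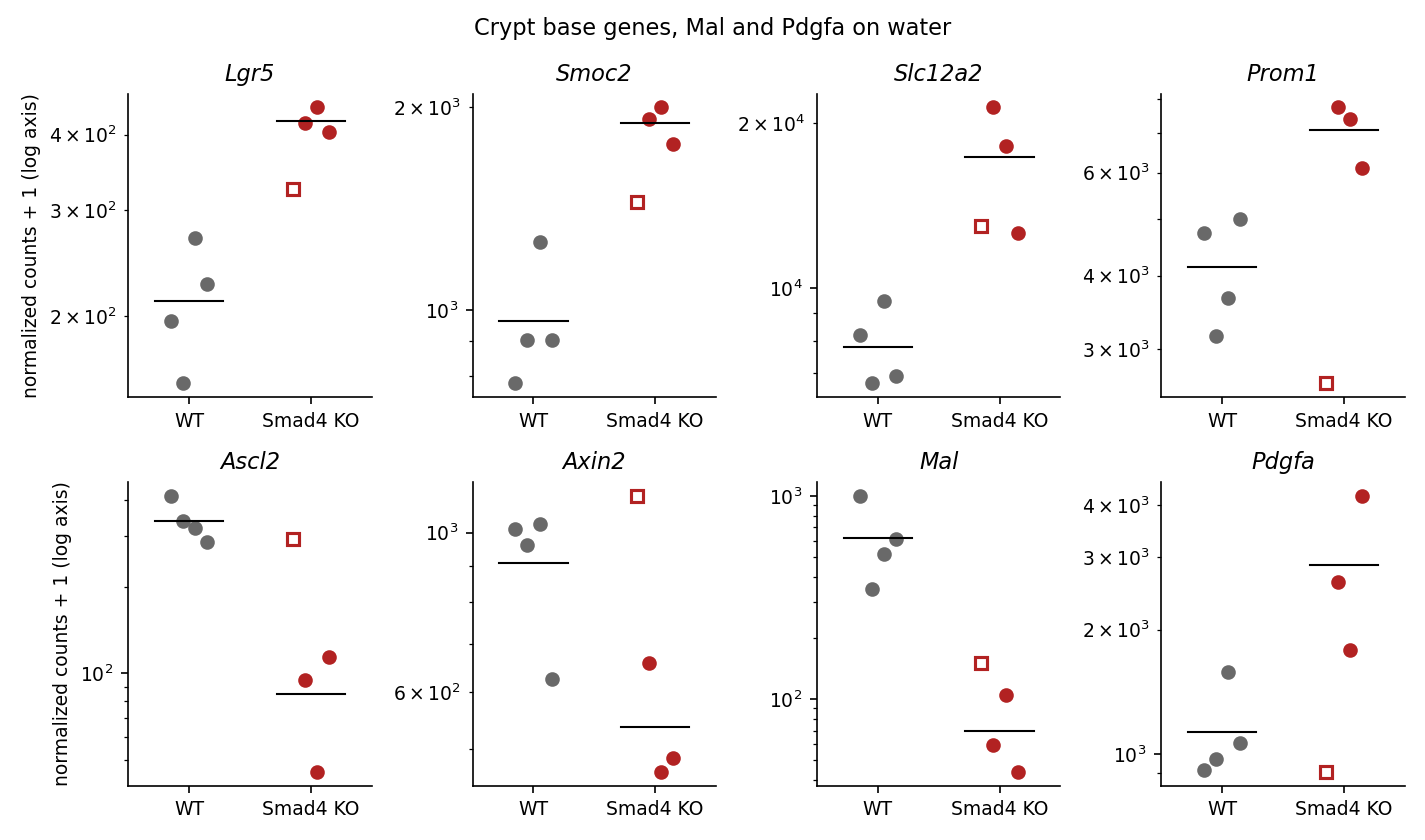
Normalized counts plus 1, on log axes that differ between panels, of 6 crypt base genes and of Mal and Pdgfa in the 4 WT (gray) and 4 Smad4 KO (red) libraries on water; the open square is the library labelled KO replicate 1, and black lines are the means of the 4 WT libraries and of KO replicates 2 to 4. Lgr5, Smoc2 and Slc12a2 lie above WT in all 4 KO libraries and Mal below, while Prom1, Ascl2, Axin2 and Pdgfa have the open square within or beyond the WT points.

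Among 29 tested genes of mature colonocytes, 4 were called lower and 1 higher with all libraries, and 2 lower and 1 higher without the library labelled KO replicate 1. All genes were called lower at 3.6% in both fits and higher at 4.83% and 4.06%. The list's median log2 fold change was -0.24 and -0.19. Car1, a carbonic anhydrase abundant in colonocytes, was at 54035, 40654, 23416 and 35797 in WT and 16267, 16919, 21298 and 23365 in KO (-0.98 ± 0.25, edgeR adjusted p = 0.0352), and missed the threshold without that library (adjusted p = 0.0587). Cdhr5, a cadherin of the brush border, was at 14031, 16209, 16686 and 17325 in WT and 9825, 8192, 11010.1 and 12050.1 in KO and passed in both fits (-0.65 ± 0.14, edgeR adjusted p = 0.0243, and adjusted p = 0.0336). Tmigd1 was called only with all libraries (-0.67 ± 0.19, edgeR adjusted p = 0.0456). AI747448, the older symbol of Lypd8, whose product keeps bacteria off the surface, rose: it was at 6458, 12801, 6872 and 5493 in WT and 11858, 15376, 36123 and 15371 in KO (1.32 ± 0.33, edgeR adjusted p = 0.0325). Krt20 (log2 fold change -0.44), Aqp8 (log2 fold change -0.56), Guca2a (log2 fold change -0.76) and Slc26a3 (log2 fold change 0.07), further genes of surface cells, were not called in either fit.

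In the ion transport list, 2 of 28 were called higher and 2 lower in each fit, beside the 4.83% and 3.6% of all genes with all libraries, and Slc12a2 and Slc9a3r1 were called in both. Cftr, the chloride channel, was at 2113, 2070.3, 2901 and 1775 in WT and 3422, 4258, 3362 and 2466 in KO (0.61 ± 0.17, edgeR adjusted p = 0.0424, and adjusted p = 0.0608 without the library labelled KO replicate 1). Slc9a3r1, the scaffold that anchors transporters at the apical membrane, was at 5226, 6013, 5581 and 4258 in WT and 4168, 2651, 3628 and 3944 in KO (-0.55 ± 0.15, edgeR adjusted p = 0.037). Without that library, Atp12a, the colonic proton-potassium pump, was called higher (1.09 ± 0.29, edgeR adjusted p = 0.0404), and Ano1, a calcium-activated chloride channel, was called lower (-1.05 ± 0.24, edgeR adjusted p = 0.0255).

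Goblet cell genes differed mainly once the library labelled KO replicate 1 was left out: 1 of 25 was called lower with it and 5 of 25 without it, beside 3.6% of all genes, and none was called higher. Fcgbp, which crosslinks the mucus, was at 38072, 67655, 41124 and 56769 in WT and 54132, 21909.7, 23191 and 22594 in KO (-1.17 ± 0.20, edgeR adjusted p = 0.0101 without that library). Zg16, a lectin of the mucus layer, was at 24151, 42536, 15268 and 25093 in WT and 32291, 10831, 7816 and 13412 in KO (-1.32 ± 0.28, edgeR adjusted p = 0.0183 without it). For both, the first KO value lay within the WT range and the other 3 lay below it. Atoh1, the factor that commits cells to the secretory lineage, was at 2360.2, 1771, 2044 and 2395 and 2439.6, 1426, 1347 and 1688 (-0.53 ± 0.15, edgeR adjusted p = 0.0443 without that library). Reg4, a lectin of secretory cells, fell in both fits, from 6654, 6956, 8869 and 7522 in WT to 4644, 2763, 2763 and 1848 in KO (-1.32 ± 0.36, edgeR adjusted p = 0.039). Muc2, the main mucin (log2 fold change -0.15), and Tff3 (log2 fold change -0.61) were not called. None of 25 enteroendocrine genes was called in either fit, and 14 of the 25 had a log2 fold change above 0 in each. Their median was 0.48, and 0.25 without the library labelled KO replicate 1. Sct, which fell, was not on that list. Of 20 tuft cell genes Sh2d6 was called lower with that library (-1.06 ± 0.31, edgeR adjusted p = 0.0491) and Avil without it (-0.70 ± 0.19, edgeR adjusted p = 0.045).

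The collagens Col1a2, Col6a1 and Col6a2, which are extracellular matrix genes and also fibroblast markers, were called higher in both fits. Col1a2 was at 5.19, 2.66, 4.89 and 4.28 in WT and 42.3, 16.7, 21.4 and 103 in KO (3.40 ± 0.66, edgeR adjusted p = 0.0214). Col6a1 was at 2.96, 2.66, 0 and 6.42 in WT and 47.6, 8.35, 27.2 and 105 in KO (3.98 ± 0.85, edgeR adjusted p = 0.0237). Col6a2 was at 3.70, 0.888, 0 and 0 in WT and 29.9, 0, 15.6 and 81.3 in KO, so the groups overlapped. The collagens thus had few counts in WT and were highest in KO replicate 4. Lamb2, a laminin chain, was called lower without the library labelled KO replicate 1 (-0.90 ± 0.24, edgeR adjusted p = 0.0374). The 13 fibroblast markers summed to 575 to 712 normalized counts in WT and 873 to 1666 in KO, with the highest sum in KO replicate 4. Of the 10 tested, 4 were called higher, beside 4.83% of all genes (Col1a2, Col6a1, Col6a2 and Dcn, so 3 of them also matrix genes), and Fbln1 as well without that library. Lum and Dpt were at 3 counts or fewer in each library. The part that fibroblasts left in the preparation have in the matrix genes was not tested. Smooth muscle markers summed to 274 to 539 in WT and 246 to 445 in KO, endothelial markers to 30.2 to 62.2 and 29.6 to 88.3, and epithelial markers to 224630 to 364431 and 231075 to 309931, so these overlapped.

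The 26 tested genes of fetal-type repair had a median log2 fold change of 0.25. Areg, a member of that list and a ligand of the EGF receptor, was at 351, 221, 350.4 and 124 in WT and 325, 433, 581 and 616 in KO (1.04 ± 0.30, edgeR adjusted p = 0.0461 without the library labelled KO replicate 1). Of 12 EGF family genes, none was called with all libraries and Areg alone without that library, beside 8.44% and 7.66% of all genes. Met, the receptor of hepatocyte growth factor, rose in all 4 KO libraries, from 897, 958, 1159 and 591 in WT to 1324, 1805, 1816 and 1343 in KO (0.80 ± 0.18, edgeR adjusted p = 0.0284). Hgf, its ligand and a fibroblast product, was at 9.63, 18.6, 6.52 and 0 in WT and 42.3, 43, 128 and 12.8 in KO (2.54 ± 0.66, edgeR adjusted p = 0.0359). Both were also called without that library. With Pdgfa they were 3 of 16 growth factor genes called higher there, beside 4.06% of all genes. That list as a whole did not rise: its median log2 fold change was -0.17 in both fits. With all libraries 6 of the 16 were above 0, and 7 without the library labelled KO replicate 1.

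Cell junction genes were 4 of 27 higher and 1 lower with all libraries and 3 higher without the library labelled KO replicate 1, beside 4.83% higher and 3.6% lower among all genes with all libraries and 4.06% higher without that library. Dsc2, a desmosomal cadherin, was at 3599.5, 3810.3, 3615 and 2627 in WT and 4631, 6642, 7263 and 4941 in KO (0.78 ± 0.16, edgeR adjusted p = 0.0231, and adjusted p = 0.0119 without that library). Tjp1, the scaffold ZO-1, and Cldn12, a claudin, had log2 fold changes of 0.63 ± 0.18 and 0.54 ± 0.15. Cldn3, another claudin, was lower with all libraries, at 15359.7, 16918, 17403 and 21458 in WT and 12169, 6719.8, 9522 and 15154 in KO (-0.71 ± 0.20, edgeR adjusted p = 0.0437), and just missed the threshold without that library (adjusted p = 0.0509).

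Fewer interferon genes had a log2 fold change above 0 than below it (19 of 48 above, and 20 of 48 without the library labelled KO replicate 1). Of the 48 tested, 3 were called lower and none higher with all libraries, beside 3.6% and 4.83% of all genes. Without the library labelled KO replicate 1, 1 was called lower and 2 higher, beside 3.6% and 4.06% of all genes. The list's medians were -0.24 and -0.18, beside -0.01 for all genes in both fits. Irf7, the factor that amplifies type I interferon, was at 3276, 2527, 2913 and 6268 in WT and 1563, 782, 1544 and 2668 in KO (-1.19 ± 0.32, edgeR adjusted p = 0.0391, and adjusted p = 0.0614 without that library). Ifi27l1 was lower in both fits (-0.89 ± 0.20, edgeR adjusted p = 0.0261). Gbp4, a guanylate-binding protein, was at 77.8, 47.9, 37.5 and 47.1 in WT and 37.9, 104, 208 and 153 in KO, and Ifit2 at 380.0, 263, 499 and 298 and 247, 801, 1061 and 655. For both, the library labelled KO replicate 1 was lowest of all 8 or close to it, and the other 3 KO libraries lay above WT (1.54 ± 0.33 and 1.22 ± 0.26, edgeR adjusted p = 0.0187 and 0.019 without that library). Of 21 antigen presentation genes, 2 had a log2 fold change above 0 and 1 was called lower, beside 3.6% of all genes. This was Psmb8, an immunoproteasome subunit (-0.71 ± 0.18, edgeR adjusted p = 0.0345, and adjusted p = 0.0555 without that library).

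Of 37 tested inflammatory genes, 4 were called higher and 1 lower with all libraries, beside 4.83% and 3.6% of all genes, and 3 higher and 1 lower without the library labelled KO replicate 1, beside 4.06% and 3.6%. The list's median log2 fold change was 0.41, and 0.50 without that library. C3, the central complement protein, was at 473, 937, 883 and 497 in WT and 1626, 1085, 2231 and 3415 in KO (1.58 ± 0.32, edgeR adjusted p = 0.0231). Tlr4, the lipopolysaccharide receptor, was at 243, 300.1, 217 and 195 in WT and 426, 536, 772 and 335 in KO (1.11 ± 0.22, edgeR adjusted p = 0.0219). C3, Tlr4 and Cxcl5 were called without it too, and Nox1, the colon's NADPH oxidase (1.15 ± 0.32, edgeR adjusted p = 0.0414), was not (adjusted p = 0.0605). Myeloid markers summed to 2003 to 3902 in WT and 2156 to 3216 in KO, and lymphoid markers to 183 to 539 and 290 to 1020, with the highest in KO replicate 4.

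Proliferation genes showed little difference: of 40 tested, 1 was called higher with all libraries (Hells, a chromatin remodeler of replication, 1.25 ± 0.26, edgeR adjusted p = 0.0235), and without the library labelled KO replicate 1 the mitotic kinase Plk1 was called lower as well (-0.66 ± 0.16, edgeR adjusted p = 0.0312). Of all genes, 4.83% were called higher with all libraries, and 4.06% higher and 3.6% lower without that library. The list's median was 0.10. Mki67 was not called (log2 fold change 0.38). Of 30 ribosome biogenesis genes, 3 were called higher in both fits, Heatr1 (0.71 ± 0.14), Ddx21 (0.61 ± 0.16) and Dkc1 (0.45 ± 0.12), all factors of ribosomal RNA production, beside 4.83% of all genes called higher. The median log2 fold change of these 30 genes was 0.06. None of 25 immediate early genes was called in either fit. Among genes of fatty acid metabolism, Acads and Fabp2 were called lower with all libraries (-0.50 and -0.96), and Acads also without the library labelled KO replicate 1. Fabp2 is a fatty acid binding protein typical of small intestine, and 8 markers of small intestine summed to 2146 to 4241 in WT and 1126 to 2274 in KO.

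Of 13 mitochondrially encoded protein genes, 0 had a log2 fold change above 0, and the median was -1.37, or -1.12 without the library labelled KO replicate 1, beside the mitochondrial shares given above. Only mt-Atp8 was called, at 236, 47.1, 143 and 139 in WT and 15, 16.7, 8.23 and 33.2 in KO (-2.96 ± 0.49, edgeR adjusted p = 0.0191). It overlaps mt-Atp6 in the genome, so its counts depend on how shared reads were assigned. Distal Hox genes, which mark the lower end of the colon, summed to 7403 to 12543 in WT, to 4337 to 6800 in KO replicates 2 to 4 and to 11308 in the library labelled KO replicate 1. Of the 7 tested, 0 were called and 0 had a log2 fold change above 0 (median -0.37, and -0.60 without that library). The part that the stretch of colon sampled has in the gene differences was not tested.

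Rpl34 (chr3:130429749-130433316), a protein of the large ribosomal subunit, had the largest fall of the genes named here. It was at 4451, 4157, 6482 and 8227 in WT and 129, 97.8, 70.0 and 176 in KO, including the library labelled KO replicate 1 (-5.63 ± 0.34, edgeR adjusted p = 3.51e-07). Its processed pseudogene Rpl34-ps1 (chr6:71074583-71074994) held 4682 to 11326 normalized counts in the same WT libraries and 5441 to 11060 in the KO libraries. The sum of both copies was 8839 to 19553 in WT and 5511 to 11158 in KO, which overlap. After DSS, Rpl34 itself was at 4380 to 6694 in WT and 3116 to 6107 in KO, and the pseudogene was low in 2 WT libraries (731 and 470). Reads that fit both copies can be given to either, so the level of Rpl34 is uncertain. Gm10154 (-3.05), and Rps26-ps1 (-3.23) and Gm9843 (-2.46) without that library, are named by predicted or pseudogene symbols and carry the same doubt where a near-identical copy exists.

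Genes called higher were longer than genes called lower. The median summed exon length was 6187.5 bases for the former, 2240.5 for the latter and 3303.5 for all tested genes, and 6096 and 2177 without the library labelled KO replicate 1. Length was not used in the calls, and its part in them was not tested.

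The DSS libraries share no library with the water comparison, so they give the same genes in other mice. Of the 701 genes called higher on water with at least 50 normalized counts on average, 595 (84.9%) also had a log2 fold change above 0 between KO and WT after DSS, and of the 518 called lower 423 (81.7%) were below 0. Without the library labelled KO replicate 1 the shares were 85.7% and 80.1%. Over all 11652 genes with that mean, 49.5% were above 0 and 50.5% below. The median log2 fold changes after DSS were 0.16 and -0.20 for the genes called higher and lower. These genes were chosen by their test on water, so the sizes of the differences on water and after DSS cannot be compared evenly. For single genes, the log2 fold change after DSS was -2.05 for Smad4, -1.46 for Id1 and -3.73 for Id3. It was -3.74 for Mal, 1.53 for Smoc2 and -0.37 for Rpl34. Mal passed the test between KO and WT after DSS (edgeR adjusted p = 0.0107). Id1, Id3 and Rpl34 did not pass it (edgeR adjusted p = 0.711, 0.701 and 0.999), so their values after DSS are a description only. All 3 KO libraries after DSS had Smad4 at 878, 808 and 856 normalized counts, below the 3 WT libraries at 3407, 3649.6 and 3493.

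**Figure D5:**
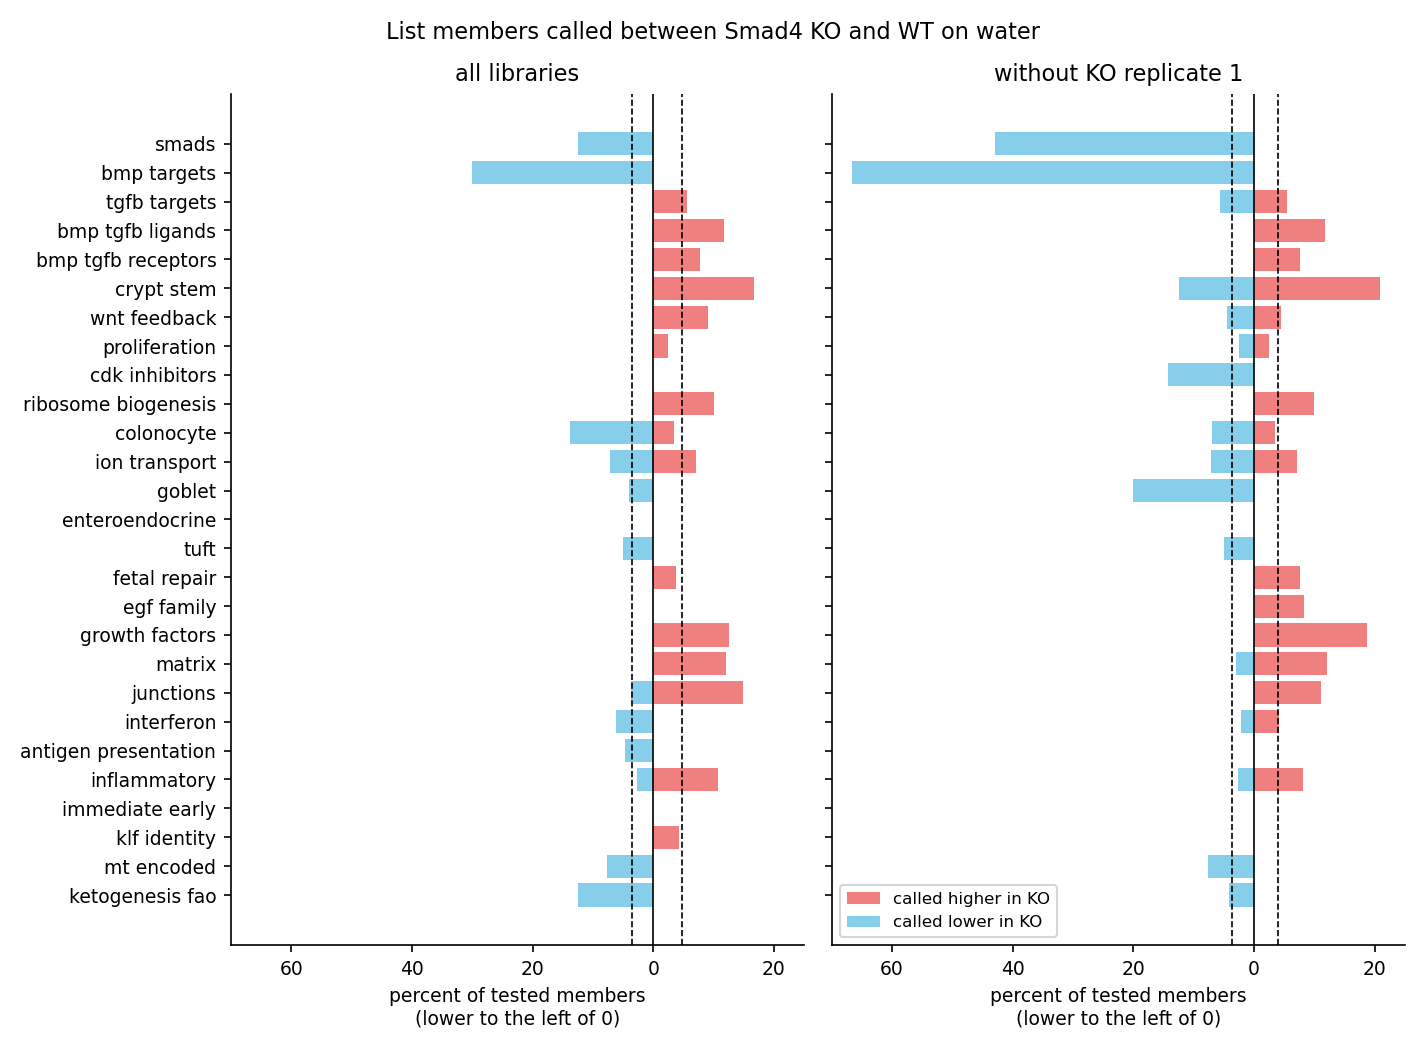
Percent of the tested members of each gene list called higher (red, to the right of 0) or lower (blue, to the left) in Smad4 KO on water, with all libraries (left panel) and without the library labelled KO replicate 1 (right panel); dashed lines mark the percent of all tested genes called, 4.83% higher and 3.6% lower on the left and 4.06% and 3.6% on the right. BMP targets reach 3 of 10 called lower on the left and 6 of 9 on the right, and goblet genes go from 1 to 5 of 25.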

How the data were processed

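The authors cleaned the paired-end reads, aligned them to mm9 with HISAT2 and counted them per gene with featureCounts (annotation release and strand setting are not given in the sources used here); the deposited values are raw counts of 37680 genes in 14 libraries. The 8 water libraries were grouped by their labels. Genes that reached 10 counts in 3 or more libraries entered an edgeR 4.0.16 quasi-likelihood model (R 4.3.3, TMM) of 4 groups, contrast KO minus WT on water, adjusted p below 0.05 by Benjamini-Hochberg. Named genes were Smad4, the 12 with the largest log2 fold change in each direction called with and without the library labelled KO replicate 1 (mean of at least 50 normalized counts over the water libraries), 5 each way called only without it, list members called in either fit, and members of the SMAD, BMP target, ligand, receptor and crypt base lists. Krt20, Aqp8, Guca2a, Slc26a3, Muc2, Tff3 and Mki67, list members outside that rule, were added after their values were seen. Results of some list members are not reported here. Gene lists and members were chosen with earlier results of these data known. Of 810 list members 808 were matched to a row. Alternatives were DESeq2 1.42.0, other scalings, filters, covariates and libraries left out. On simulated data for this contrast (14851 genes), edgeR found 168 of 200 changed genes with 10 false calls, 70 of 100 at a log2 change of 1 and 98 of 100 at 2. The simulated libraries held no effect of mitochondrial share, name letters or a single deviating library, so these rates may not hold for the real ones. Nothing in the labels says that replicates are separate mice, so p-values measure the spread between these libraries.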

Additional observations from a re-analysis of the deposited data

Results flagged for a closer look

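In 7 of 72 groups of 4 libraries examined (the named genes of the leading rules and Smad4, WT and KO apart), 1 library stood apart from the other 3 by Dixon's test, which chance does in about 1 of 20 groups. In 5 of them it was the library labelled KO replicate 1 or 3 within the KO group: Smad4 at 3164, Id3 at 1237, 1190002H23Rik at 374.3 and Sult1a1 at 3857 normalized counts were the highest KO values and all came from the library labelled KO replicate 1, and Ces2f at 761.7 came from KO replicate 3. Smad4 was the reason for setting that library aside, and Id3 and 1190002H23Rik were named because they were called only without it, so the rate of chance does not apply to them. In WT, AL646020.1 at 16.3 was the lowest value (replicate 3) and Rps26-ps1 at 1090 the highest (replicate 4). Rpl34 is listed because its genotype difference on water differed from that after DSS (log2 difference of the fold changes, water minus DSS, -5.25, edgeR test in the model of 14 libraries, adjusted p = 6.48e-05). Of Smad4 and the genes named for the size of their change, it was the only one to pass that test.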

How the results depend on the processing

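The number of genes called on water was 1276. Other scalings and filters gave 1271 to 1404. DESeq2 called 2624, DESeq2 on the water libraries 796, edgeR on the water libraries 1 (3057 at an unadjusted p under 0.05), a block for the letters of the library names 2018, and the mitochondrial share as covariate 8. Without the library labelled KO replicate 1, DESeq2 called 2441, DESeq2 on water alone 633, edgeR on water alone 13, the name letters as block 2612 and the mitochondrial share 597. Leaving out 1 library at a time gave 4 to 4104: 815 without WT replicate 1, 545 without WT replicate 3, 4 without WT replicate 4, 16 without KO replicate 2, 5 without KO replicate 3 and 4104 without KO replicate 4. With upper-quartile scaling the calls were 624 higher and 659 lower, against 731 and 545. The cause of these changes was not tested.

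Smad4 on water, at -0.95 on the log2 scale and not called, was called by DESeq2 (-0.95 as well, adjusted p = 0.0355). Without the library labelled KO replicate 1, which was set aside for its Smad4 level, its values are a description: -1.75 by edgeR and by DESeq2 (also -1.75 on water alone by both tools), -1.75 with the replicate block, -1.81 with the name letters and -1.83 with the mitochondrial share. Leaving out 1 library at a time gave -1.75 to -0.72. The difference in mitochondrial share kept its sign without each library.

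Replicate numbers are shared by the groups. Deviations from the group means correlated at 0.004, -0.05 and 0.003 for numbers 1, 2 and 3, so these numbers did not pair the libraries. For number 4, whose WT and KO libraries share the letters MP, they correlated at 0.50, the highest value of any WT and KO pair. A replicate block called 2977 genes (3379 without the library labelled KO replicate 1) and gave Smad4 on water at -1.15 (adjusted p = 0.0288). No named gene called in a fit was called the other way in an alternative, but 67 named genes lost their call with the mitochondrial share as covariate, 69 on the water libraries alone and 28 with the name letters as block. With 4 libraries a group and 12882827 to 26087231 counts each, a missed call does not show equal levels.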
